A study of Rattus with 8 samples.

Results

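miR-142, miR-150 and miR-223 are miRNAs of white blood cells, and they were followed here in the rat hippocampus 24 h after surgery with cardiopulmonary bypass (CPB), in which a pump takes over the circulation, combined with cooling and arrest of the circulation (deep hypothermic circulatory arrest, DHCA). They were chosen by name, with either arm of each precursor admitted. Of 615 mature miRNAs listed in the count table, 5 met this rule, namely rno-miR-142-3p, rno-miR-142-5p, rno-miR-150-5p, rno-miR-223-3p and rno-miR-223-5p. No 3p arm of miR-150 was listed. The first 4 of these had enough tags for a test, whereas rno-miR-223-5p did not.

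A miRNA is cut from a hairpin precursor, whose arms are called 5p and 3p, and it represses messenger RNAs that pair with its seed, bases 2 to 8 counted from the 5′ end. miR-142 is made in nearly all cells of the blood lineages and in microglia, the resident macrophages of the brain, and both of its arms are functional. miR-150 is abundant in mature lymphocytes, where in the mouse it represses the transcription factor Myb, and miR-223 is abundant in neutrophils, monocytes and platelets, where in the mouse it restrains the production and activity of granulocytes. Together they are widely used to follow leukocytes in tissue.

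Hippocampal small RNA was sequenced in 4 libraries of the control group and 4 of the CPB/DHCA group, all from male Sprague-Dawley rats of 9 weeks with 1 batch date in the labels. CPB/DHCA rats were given 5 min of normothermic CPB under sevoflurane, were cooled to a rectal temperature of 18 °C over 30 min, underwent circulatory arrest for 30 min, and were then rewarmed over about 60 min. Control rats were anaesthetized, intubated and cannulated in the same way without CPB or DHCA, and tissue of both groups was taken at 24 h. All animals received acetaminophen. In the CPB/DHCA group only animals that completed the protocol and lived to that time were kept. The labels do not say that each library came from a separate rat, so p-values measure the spread between these libraries. The total count was 620133 to 772840 in control and 508574 to 672378 in CPB/DHCA libraries. Tags were scaled to CPM, the count a library would have at a total of 1e+06, with the trimmed mean of M values (TMM), and 1 tag was worth 1.196 to 2.003 CPM. Neuronal miRNAs (miR-9a-5p, miR-124-3p, miR-128-3p, miR-137-3p and miR-138-5p) were all listed, with summed levels of 234000 to 337000 CPM in control libraries and 184000 to 371000 CPM in CPB/DHCA libraries. CPB/DHCA 3 stood apart, with the lowest neuronal sum and 23300 CPM of oligodendrocyte miRNAs, against 5360 to 12300 CPM in the other CPB/DHCA libraries and 6500 to 8110 CPM in control libraries.

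The listed sequences are shown to compare their seeds, which are in capitals. 
rno-miR-142-5p: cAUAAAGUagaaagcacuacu
rno-miR-142-3p: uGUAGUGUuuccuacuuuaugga
rno-miR-150-5p: uCUCCCAAcccuuguaccagug
rno-miR-223-3p: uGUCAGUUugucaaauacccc
rno-miR-223-5p: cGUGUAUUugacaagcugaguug
All 5 seeds differ, and none of them was found in any other sequence of the table. The nearest relative was rno-miR-532-3p, which shares bases 2 to 7 with rno-miR-150-5p.
rno-miR-532-3p: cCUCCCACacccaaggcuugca
No other listed sequence, predicted ones included, held 10 consecutive bases of any of the 5, so no near copy was listed that could have shared their tags. The sequences are 21 to 23 nt long. Their content of G and C is 33.3% in rno-miR-142-5p, 34.8% in rno-miR-142-3p, 42.9% in rno-miR-223-3p, 43.5% in rno-miR-223-5p and 54.5% in rno-miR-150-5p. RefSeq (GRCr8) names the precursor genes Mir142, Mir150 and Mir223.

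The arms of miR-142 are shown once more with the longest stretch in which they pair without a mismatch in capitals, since both come from this hairpin and are compared below.
rno-miR-142-5p: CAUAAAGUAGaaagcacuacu
rno-miR-142-3p: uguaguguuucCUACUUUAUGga
This run is 10 bases long, from base 1 to 10 of the 5p arm and from base 12 to 21 of the 3p arm. It takes in the whole seed of the 5p arm and none of the seed of the 3p arm.

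The leukocyte miRNAs were of middle to low abundance in the hippocampus, and the order of the 4 tested arms was the same in each of the 8 libraries. rno-miR-150-5p was the most abundant, with 510 CPM on average over the 8 libraries and rank 106 of the 615 listed miRNAs. rno-miR-142-5p followed with 76.8 CPM and rank 212, then rno-miR-142-3p with 8.77 CPM and rank 363, and rno-miR-223-3p with 2.12 CPM and rank 463. rno-miR-223-5p had 2 tags in all, both in CPB/DHCA 4, where rno-miR-223-3p was not listed.
In single libraries rno-miR-150-5p had 4.82 to 8.58 times the tags of rno-miR-142-5p, which in turn had 6.89 to 12 times those of rno-miR-142-3p. rno-miR-142-3p exceeded rno-miR-223-3p in 8 of 8 libraries, but with 3 to 9 tags against 0 to 3 their exact 95% counting intervals overlapped in every library. Each tag is 1 mature miRNA, so these levels need no correction for length, but how readily each sequence takes the adapters was not measured.

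**Figure D1:**
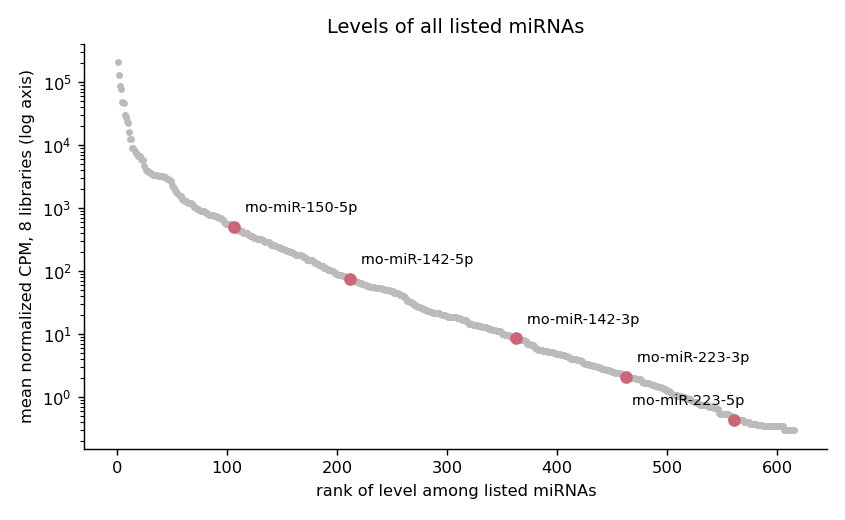
Mean normalized CPM over the 8 libraries (log axis) of the 615 listed miRNAs in order of level, with the arms of miR-142, miR-150 and miR-223 in red. rno-miR-150-5p stands at rank 106, rno-miR-142-5p at 212, rno-miR-142-3p at 363, rno-miR-223-3p at 463, and rno-miR-223-5p is near the lowest level.

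No difference between the CPB/DHCA group and the control group was detected for any of the 4 leukocyte miRNAs tested. rno-miR-150-5p and rno-miR-142-5p, which carry most of the tags, had the narrower intervals, whereas rno-miR-142-3p and rno-miR-223-3p rest on few tags. The study's thresholds were a 1.5-fold change in either direction and 0.05 for the unadjusted p-value. With these, 0 of the 4 passed in edgeR's quasi-likelihood test, against 34 of all 467 miRNAs tested (7.28%). None of the 4 had an unadjusted p under 0.05 in edgeR, DESeq2 or limma. At an adjusted p under 0.05 the count was again 0 of 4, against 0.214% of all miRNAs tested. For none of the 4 did the libraries of the groups separate without overlap, which occurred in 4.71% of all miRNAs tested. Their median log2 fold change was -0.19, beside -0.0505 over all miRNAs tested. Without CPB/DHCA 3 none passed either, with log2 fold changes of -0.15 for rno-miR-142-3p, -0.08 for rno-miR-142-5p, 0.04 for rno-miR-150-5p and -0.50 for rno-miR-223-3p. In bulk tissue, fewer cells of a type and less RNA per cell cannot be told apart.

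**Figure D2:**
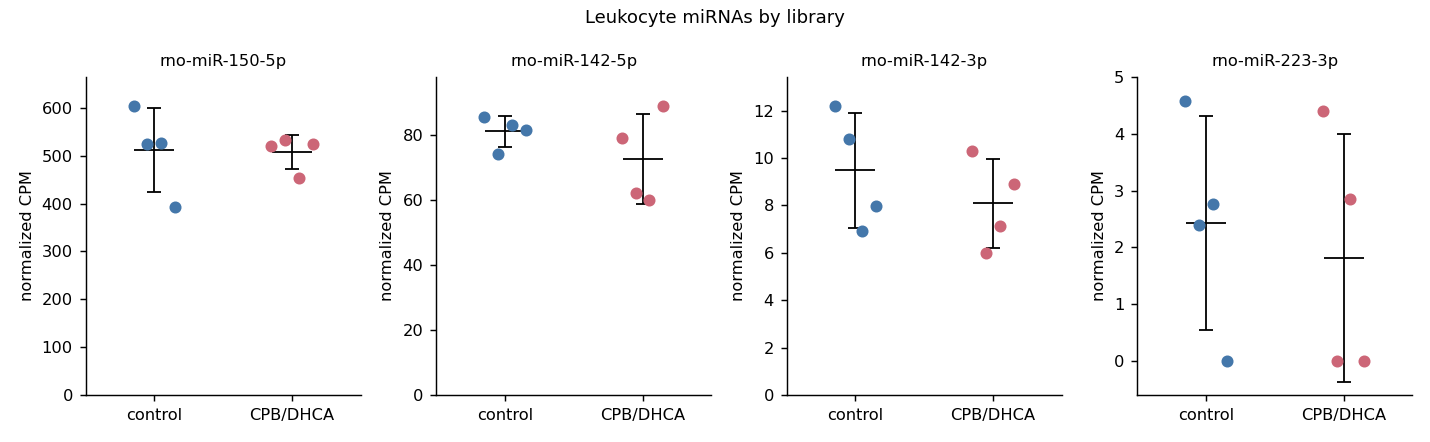
Normalized CPM (each vertical axis has its own scale) of the 4 tested leukocyte miRNAs in the control group (blue) and the CPB/DHCA group (red). Points are libraries 1 to 4 from left to right and black lines are mean ± SD (n = 4); the groups overlap in each panel.

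rno-miR-150-5p, which is abundant in lymphocytes, had 604, 525, 527 and 393 CPM in control 1 to 4, from 396, 439, 380 and 246 tags. In CPB/DHCA 1 to 4 it had 520, 533, 454 and 524 CPM, from 355, 266, 318 and 295 tags. All 4 CPB/DHCA libraries thus lay between the highest and the lowest control library. The means were 512 ± 87.7 CPM (SD, n = 4) and 508 ± 36.2 (SD, n = 4). Its log2 fold change was -0.01 (standard error 0.17, adjusted p = 0.998 in edgeR), with a 95% interval of 0.759-fold to 1.29-fold, which does not reach 1.5-fold in either direction. The sign of so small a value turned with the scaling and with the library left out, within -0.12 to 0.08. An exact two-sided permutation test of the CPM over the 70 assignments of libraries gave p = 0.857, where the smallest possible p is 0.0286.
In the authors' normalized table it stood at 149, 145, 130 and 100 TPM (tags per 1e+06 aligned) in control 1 to 4, and at 138, 136, 138 and 118 TPM in CPB/DHCA 1 to 4. These TPM are lower than the CPM of the same tags, so the totals behind the scales differ. In that table too control 4 was the lowest and control 1 the highest library. rno-miR-532-3p, which shares part of its seed, averaged 19.6 ± 2.5 CPM in control and 23.3 ± 4.8 CPM in CPB/DHCA libraries (SD, n = 4 each; log2 fold change 0.26, adjusted p = 0.927 in edgeR).

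rno-miR-142-5p, the main arm of the miRNA common to leukocytes and microglia, had 85.5, 74.2, 83.2 and 81.5 CPM in control 1 to 4. These values came from 56, 62, 60 and 51 tags. In CPB/DHCA 1 to 4 it had 79.1, 62.1, 60.0 and 88.9 CPM, from 54, 31, 42 and 50 tags. CPB/DHCA 2 and CPB/DHCA 3 were below every control library, while CPB/DHCA 4 was above every one of them.
The control mean was 81.1 ± 4.88 CPM (SD, n = 4) and the CPB/DHCA mean 72.5 ± 13.9 CPM (SD, n = 4). The log2 fold change was -0.16 (standard error 0.19, adjusted p = 0.959 in edgeR), with a 95% interval of 0.665-fold to 1.21-fold. That interval just reaches a 1.5-fold fall but not a 1.5-fold rise. The exact two-sided permutation test gave p = 0.314.
In the authors' normalized table the 4 control libraries all stood at 21 TPM, and the CPB/DHCA libraries at 21, 16, 18 and 20. CPB/DHCA 2 and CPB/DHCA 3 were again the lowest, but CPB/DHCA 4, the highest library in CPM, was here below the control libraries.

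rno-miR-142-3p, the other arm of the same precursor, was listed in all 8 libraries at a low level. It had 8, 9, 5 and 5 tags in control 1 to 4 (12.2, 10.8, 6.93 and 7.99 CPM). In CPB/DHCA 1 to 4 it had 7, 3, 5 and 5 tags (10.3, 6.01, 7.14 and 8.89 CPM). The groups overlapped over most of their range. With 9.47 ± 2.44 CPM (SD, n = 4) and 8.07 ± 1.88 (SD, n = 4), the log2 fold change was -0.22 (standard error 0.37, adjusted p = 0.989 in edgeR). Its 95% interval runs from 0.485-fold to 1.53-fold, and the exact permutation test gave p = 0.4. The exact interval of the ratio of summed tag rates, for counting error only, was wider, at 0.457 to 1.59. Neither a fall to about the lower bound nor a small rise can therefore be told from no change at this depth.

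rno-miR-223-3p, the neutrophil and monocyte miRNA, was close to the detection limit in both groups. It had 3, 2 and 2 tags in control 1 to 3 and none listed in control 4. In the CPB/DHCA group it had 3 tags in CPB/DHCA 1 and 2 in CPB/DHCA 3, and was not listed in CPB/DHCA 2 or 4. The table lists no count of 1, so an empty cell may stand for 0 or 1 tag, and it was read as 0. It was therefore listed in 3 of 4 control libraries and 2 of 4 CPB/DHCA libraries.
Summed over libraries, 7 control tags and 5 CPB/DHCA tags gave a rate ratio of 0.83, with an exact 95% interval of 0.208 to 3.04 that covers counting error only. The edgeR log2 fold change was -0.27 (standard error 1.03, adjusted p = 0.998), with an interval of 0.167-fold to 4.12-fold, and its sign turned to 0.04 when each empty cell was read as 1 tag. No library had more than 3 tags of this miRNA. Its other arm, rno-miR-223-5p, was listed only in CPB/DHCA 4 with 2 tags (3.55 CPM) and was not tested.

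**Figure D3:**
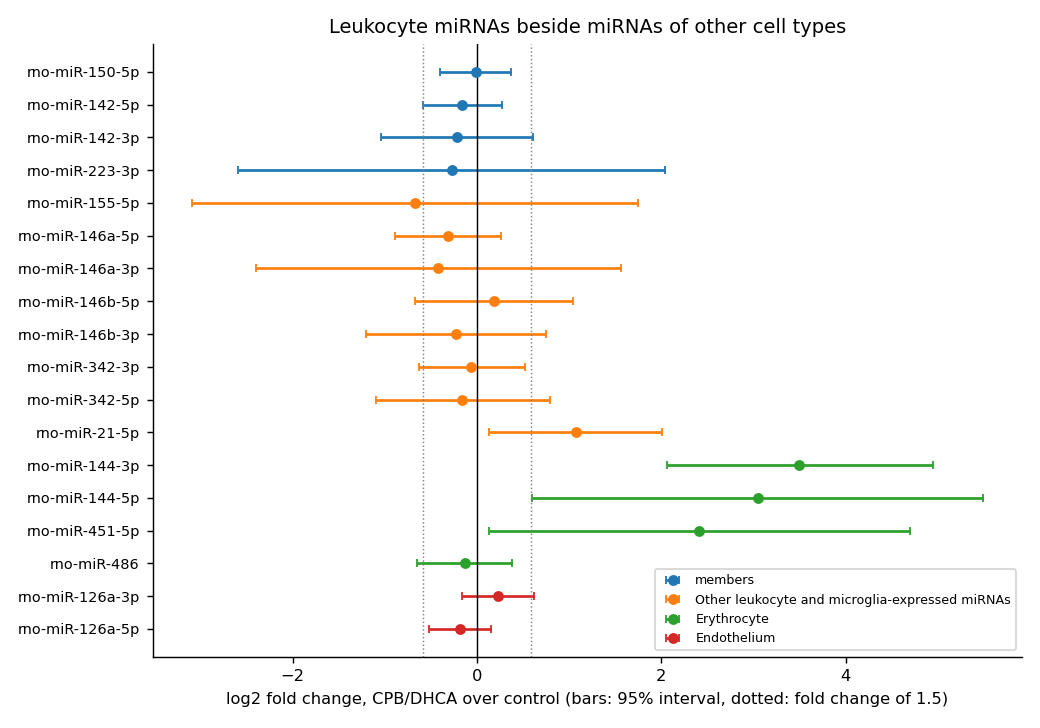
Log2 fold change of the CPB/DHCA group over the control group for the 4 leukocyte miRNAs tested (members, blue) and for other leukocyte and microglia-expressed, erythrocyte and endothelial miRNAs. Points are edgeR estimates and bars their 95% intervals; those of all 4 leukocyte miRNAs include 0, while miR-21-5p and 3 erythrocyte miRNAs lie above it.

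The precision differed among the members, and for both arms of miR-142 the spread of the libraries was near or below counting error. The coefficient of variation (CV, SD over mean) of rno-miR-142-5p was 6.03% among control and 19.1% among CPB/DHCA libraries, where counting its tags alone gives 13.2% and 15%. For rno-miR-142-3p it was 25.7% and 23.2%, below the 38.5% and 44.7% of counting alone. rno-miR-150-5p, with the most tags, had 17.1% in the control group against a counting error of 5.23%, and 7.13% in the CPB/DHCA group against 5.69%.
Among 318 tested miRNAs with a mean of at least 10 tags, the median CV was 21.3% for control and 22.8% for CPB/DHCA libraries. Of them 9 had a smaller CV than rno-miR-142-5p in the control group, and 15 a smaller one than rno-miR-150-5p in the CPB/DHCA group. In the opposite groups these counts were 130 for rno-miR-142-5p and 118 for rno-miR-150-5p.

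The 5p arm of miR-142 took most of its tags in every library, and no difference between the groups in the division between the arms was detected. Of 453 miR-142 tags in all, 47 were of the 3p arm, which is 10.4% (exact Clopper-Pearson 95% interval 7.72% to 13.6%). The share of the 3p arm was 12.5%, 12.7%, 7.69% and 8.93% in control 1 to 4. It was 11.5%, 8.82%, 10.6% and 9.09% in CPB/DHCA 1 to 4, all within the range of the control group. With means of 10.4% ± 2.52 (SD, n = 4) and 10.0% ± 1.26 (SD, n = 4), the difference was -0.442 percentage points (95% interval by inverting the permutation test, -3.83 to 3.77; exact two-sided permutation test, p = 0.771). Since both arms are read in the same library, this share does not depend on the scaling.

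**Figure D4:**
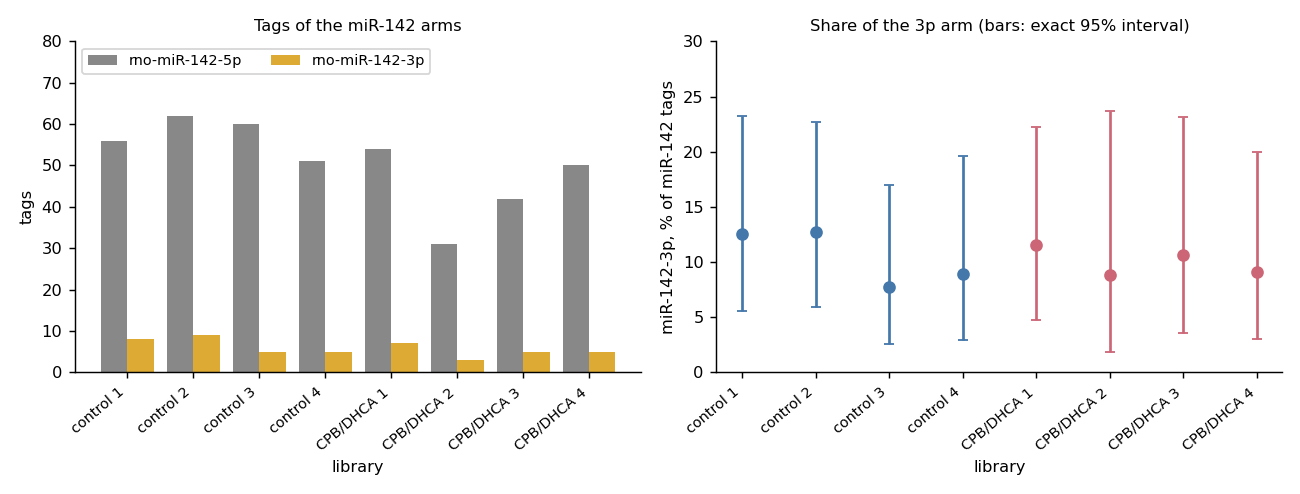
Left, tags of rno-miR-142-5p (grey) and rno-miR-142-3p (yellow) in each library; right, the 3p arm as a percentage of miR-142 tags, with exact 95% binomial intervals for counting error, in the control group (blue) and the CPB/DHCA group (red). The 5p arm has 31 to 62 tags and the 3p arm 3 to 9, and the intervals of the shares overlap in all libraries.

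Ratios between the miRNAs likewise need no scaling factor. They are tied to depth where tags are few, since 0.5 tags were added to each count. They set rno-miR-150-5p and rno-miR-223-3p, abundant in lymphocytes and in myeloid cells, beside the miRNA common to leukocytes. Which cells of the hippocampus made these tags was not tested. In control 4, CPB/DHCA 2 and CPB/DHCA 4 rno-miR-223-3p was not listed. Its log2 ratio to rno-miR-142-3p there (-3.46, -2.81 and -3.46) was set by the added tags and the tags of rno-miR-142-3p. With 0.5 tags added to each count, the log2 ratio of rno-miR-150-5p to rno-miR-142-3p was 5.54, 5.53, 6.11 and 5.49 in control 1 to 4. In CPB/DHCA 1 to 4 it was 5.57, 6.25, 5.86 and 5.75. CPB/DHCA 2 was above every control library and the other CPB/DHCA libraries lay within the control range. The difference of 0.187 (95% interval -0.543 to 0.764) was not larger than the spread (exact two-sided permutation test, p = 0.371). The log2 ratio of rno-miR-223-3p to rno-miR-142-3p averaged -1.95 ± 1.06 (SD, n = 4) among control and -2.13 ± 1.19 (SD, n = 4) among CPB/DHCA libraries (difference -0.175, 95% interval -2.31 to 2.35, exact permutation p = 1.0). Adjusted over the arm share and these ratios, 3 tests, all p-values were 1.0.

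No correlation of rno-miR-142-5p with rno-miR-150-5p across libraries was detected. Over the 8 libraries their log2 CPM had a Pearson r of 0.212 (exact permutation p = 0.587) and a Spearman rho of 0.238 (exact permutation p = 0.582), the 1 relation tested. Without the 2 libraries farthest from the median of rno-miR-142-5p, r was 0.174. Both levels share the library's scaling factor, and with 4 libraries a group no value within groups was computed.
As a description, the miRNAs whose log2 CPM followed each member most closely over the 8 libraries were sought among the 318 with a mean of at least 10 tags. For rno-miR-142-5p they were miR-203a-3p (r = 0.96), miR-376a-3p (0.862) and miR-29b-3p (0.859), and for rno-miR-150-5p let-7d-5p (r = 0.893), miR-153-5p (0.888) and let-7e-5p (0.887). For rno-miR-142-3p they were miR-361-5p (r = 0.938), miR-539-3p (0.862) and miR-181b-1-3p (0.853), and for rno-miR-223-3p miR-412-5p (r = 0.887), miR-32-5p (0.873) and miR-322-5p (0.861). With 8 libraries and this many candidates, high values of r arise readily, and those of rno-miR-142-3p and rno-miR-223-3p rest on few tags.

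Among other miRNAs expressed in leukocytes and microglia, only miR-21-5p passed the thresholds. Of 10 such miRNAs (both arms of miR-155, miR-146a, miR-146b, miR-342 and miR-21), 9 were listed and 8 tested, of which 1 passed the thresholds upwards (against 3.85% of all miRNAs tested) and 0 downwards (against 3.43%). Their median log2 fold change was -0.19. The most abundant, miR-146b-5p, which dampens signalling of innate immune receptors, averaged 1700 ± 542 CPM (SD, n = 4) in control and 1940 ± 1070 CPM (SD, n = 4) in CPB/DHCA libraries (log2 fold change 0.19, adjusted p = 0.992 in edgeR). miR-21-5p, which glia and many other cells make after injury, had 368, 605, 671 and 460 CPM in control 1 to 4 and 1190, 459, 2050 and 707 CPM in CPB/DHCA 1 to 4. CPB/DHCA 2 lay within the control range, and CPB/DHCA 3 was the highest library. Its log2 fold change was 1.07 (standard error 0.42, adjusted p = 0.528 in edgeR, from 0.0302 unadjusted), and it no longer passed without CPB/DHCA 3 (0.58), CPB/DHCA 1 (1.08), control 1 (0.93) or control 4 (1.01). miR-219a-5p, a miRNA of oligodendrocytes, had a similar profile in the CPB/DHCA group, with 1180, 425, 1950 and 725 CPM, after 456, 616, 491 and 459 CPM in control 1 to 4. Its part in the value of miR-21-5p was not tested.

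Most red-cell miRNAs were higher in the CPB/DHCA group, in the same libraries in which the leukocyte miRNAs overlapped between groups. The tags of the miR-144 and miR-451 cluster, which erythroid cells make in large amounts, numbered 7, 4, 2 and 0 in control 1 to 4 and 44, 14, 28 and 31 in CPB/DHCA 1 to 4. The summed tags of the 4 tested leukocyte miRNAs were 463, 512, 447 and 302 in the same control libraries, and CPB/DHCA 1 to 4 had 419, 300, 367 and 350. In CPM the cluster averaged 4.56 among control and 46.9 among CPB/DHCA libraries, while the summed leukocyte miRNAs averaged 605 ± 92.3 (SD, n = 4) and 590 ± 45.0 (SD, n = 4). Most of the leukocyte sum was rno-miR-150-5p, with 512 CPM in control and 508 CPM in CPB/DHCA libraries, so it says little about the other members. The cluster, a part of the erythrocyte list, was higher in each CPB/DHCA library than in any control library, and the leukocyte sum overlapped. Of the cluster's tags, miR-144-3p had 8 of 13 in control and 83 of 117 in CPB/DHCA libraries. With the erythrocyte miRNA miR-486 added, the red-cell sum overlapped too, at 96.9 to 136 CPM in control and 104 to 190 CPM in CPB/DHCA libraries. Whether the effects on these sums differ was not tested.
Of the 4 erythrocyte miRNAs, 3 passed the thresholds upwards (against 3.85% of all miRNAs tested), namely miR-144-3p (log2 fold change 3.5, adjusted p = 0.0767 in edgeR), miR-144-5p (3.05, adjusted p = 0.528) and miR-451-5p (2.41, adjusted p = 0.528). miR-486, the most abundant, had -0.13. The libraries of the groups separated for miR-144-3p (against 4.71% of all miRNAs tested) and overlapped for miR-144-5p, miR-451-5p and miR-486. The values of miR-144-5p and miR-451-5p rest on 2 and 3 control tags, each in 1 library, and without that library (control 3 and control 1) they were 5.27 and 5.14, fitted values against control libraries all at 0 that depend on the fit's prior count. miR-451-5p no longer passed without control 2, 3 or 4 or CPB/DHCA 1 or 4 (1.95 to 2.36). Both arms of the endothelial miR-126a, a vessel marker, were tested and neither passed (0.23 for the 3p arm and -0.18 for the 5p arm).
Of the other lists, 0 of 5 neuronal, 1 of 6 mural and fibroblast (miR-199a-5p, lower), 1 of 4 oligodendrocyte (miR-219a-5p, higher) and 0 of 4 choroid plexus and ependymal miRNAs passed, where 3.85% of all miRNAs tested passed upwards and 3.43% downwards. All 4 oligodendrocyte miRNAs had positive log2 fold changes (0.54 to 1.08, beside a median of -0.0505 over all miRNAs tested), but the groups overlapped for each. Their sum was 5360 CPM in CPB/DHCA 2, below every control library (6500 to 8110 CPM), and highest in CPB/DHCA 3 (23300 CPM). The neuronal miR-137-3p, named after its values were seen, was lower in each CPB/DHCA library than in any control library, but its log2 fold change of -0.47 (adjusted p = 0.528 in edgeR) was under 1.5-fold. miR-199a-5p no longer passed without control 1, control 2 or CPB/DHCA 1, and miR-219a-5p without control 1, control 4 or CPB/DHCA 3. The part of cell composition and blood content in the levels of miR-142, miR-150 and miR-223 was not tested.

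**Figure D5:**
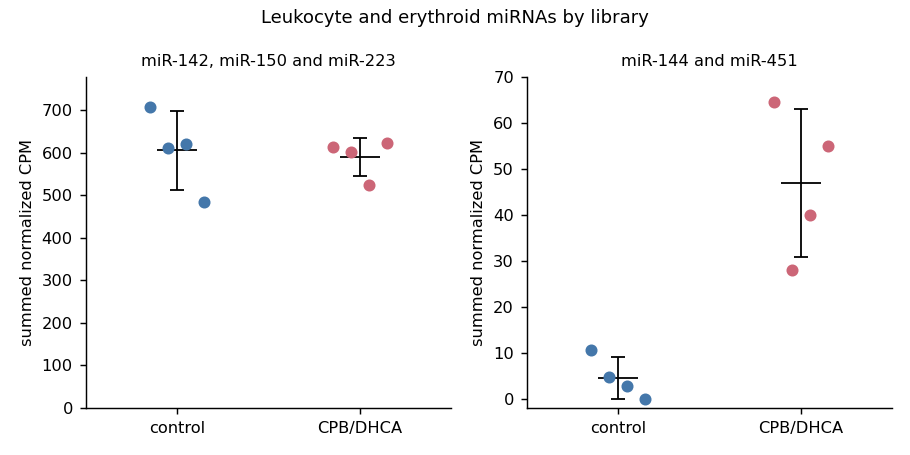
Summed normalized CPM of rno-miR-142-3p, rno-miR-142-5p, rno-miR-150-5p and rno-miR-223-3p (left) and of miR-144-3p, miR-144-5p and miR-451-5p (right) in the control group (blue) and the CPB/DHCA group (red), with mean ± SD (n = 4) in black. The leukocyte sum is 483 to 707 in control and 524 to 622 in CPB/DHCA libraries and is mostly rno-miR-150-5p. The erythroid sum, which leaves out miR-486, is 0 to 10.7 and 28.0 to 64.5.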

How the data were processed

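Small RNA of the hippocampus was measured in 4 control and 4 CPB/DHCA libraries. Adapters had been trimmed with cutadapt 1.9.3 and reads aligned with Novoalign 3.02.12 to known (miRBase) and newly predicted precursor sequences, per the submitters' processing notes (rn6) and the study's methods. The authors deposited raw tag counts on 669 lines, which name 615 mature miRNAs. Names on several lines (47) had equal counts there and were used once. A second deposited table gives a score, the authors' TPM rounded to whole numbers. Of 4920 cells 1175 were empty, and with 2 the smallest listed count an empty cell was read as 0. The exact intervals of tags, tag rates and tag shares cover counting error only, and the counts came from amplified reads. Intervals of fold changes and of differences between groups are built on the spread between libraries. Where that spread is below counting error, as for rno-miR-142-3p, they can be narrower than the exact interval.

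A miRNA was tested (467 of them) if its summed count reached 10 and 4 or more libraries listed it. Groups were compared in R 4.3.3 with edgeR 4.0.16 (TMM factors 0.891 to 1.129, quasi-likelihood test, Benjamini-Hochberg over all 467). Intervals of fold changes use the test's standard error. Exact permutation tests used scipy 1.17.1. Alternatives used DESeq2 1.42.0, limma 3.58.1 on log2(TPM + 1) and log2(TPM + 10), other factors and filters, miRBase miRNAs only, no erythrocyte miRNAs, empty cells at 1 tag, a replicate block and each library left out; for the ratios, TPM for tags and, chosen after seeing the data, miR-142-5p as denominator and 0.1 tags added. The edgeR step was tested on simulated counts, and the permutation step on small made-up sets of values.

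Named were every member, listed miRNAs sharing a seed (bases 2 to 8; one sharing bases 2 to 7 was added after its value was seen), the 3 most correlated with each member, and, of lists for leukocytes and microglia, erythrocytes, endothelium, mural cells and fibroblasts, neurons, oligodendrocytes and choroid plexus and ependyma, those that passed and up to 2 of the most abundant. miR-486 and the neuronal names come from these lists. Members and lists were chosen with earlier results of these data known.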

Additional observations from a re-analysis of the deposited data

Results flagged for a closer look

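Of 14 groups of 4 values examined, 2 held a library far from the others, and chance alone marks about 5% of such groups. rno-miR-150-5p in CPB/DHCA 3 (454 CPM) lay below the other CPB/DHCA libraries (520 to 533) by 0.839 of the group's range. The log2 ratio of rno-miR-150-5p to rno-miR-142-3p in control 3 (6.11) lay above the other control libraries (5.49 to 5.54) by 0.908 of the range, and rests on 5 tags of rno-miR-142-3p.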

How the results depend on the processing

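None of the 78 values of the 4 leukocyte miRNAs under the alternatives passed the thresholds. rno-miR-142-3p (-0.34 to -0.03) and rno-miR-142-5p (-0.27 to -0.08) kept their sign. rno-miR-150-5p turned to 0.036 with DESeq2 size factors, 0.034 with DESeq2, 0.03 and 0.027 with limma at pseudocounts of 1 and 10, 0.053 with at least 10 counts in 4 libraries, 0.029 with miRBase miRNAs only and 0.013 with empty cells as 1 tag. With each library left out it ranged from -0.121 to 0.076. rno-miR-223-3p turned to 0.037 with empty cells as 1 tag and ranged from -0.994 to 0.132 with 1 library left out. rno-miR-142-3p and rno-miR-223-3p gave no value with at least 10 counts in 4 libraries, since they do not meet that filter. The difference in the 3p share of miR-142 was 0.078 on the authors' TPM and -1.361 to 0.3 with 1 library left out. The ratio of rno-miR-223-3p to rno-miR-142-3p differed by -0.678 to 0.269 with 1 library left out, and by -0.662 with 0.1 tags added in place of 0.5 (-0.175), an alternative chosen after seeing the data. That of rno-miR-150-5p differed by 0.055 to 0.335 (smallest exact permutation p = 0.0571). The cause of the changes of sign was not tested.

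The 34 miRNAs past the thresholds became 12 with limma on log2(TPM + 10), 19 with miRBase miRNAs only, 23 with at least 10 counts in 4 libraries, and 18 to 44 with 1 library left out (18 without control 3, 21 without control 1). The 1 at an adjusted p under 0.05 became 2 with DESeq2, limma on log2(TPM + 10), at least 10 counts in 4 libraries or empty cells as 1 tag, 3 with limma on log2(TPM + 1), and 0 with miRBase miRNAs only, which leaves out the predicted miRNA concerned. The labels do not say that replicate numbers pair the libraries. After the group mean of each miRNA was subtracted, correlations of same-numbered libraries were 0.195, -0.0773, -0.0611 and 0.501, and 4 values are too few to decide. With the replicate block 31 miRNAs passed, and 4 of 8 libraries correlated best with their own number. Depth limits miR-142-3p and miR-223.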
